A study of Homo sapiens with 12 samples.

Results

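The 9 genes described here encode the transcription factors that set up and carry out the skeletal muscle program: the myogenic regulatory factors MYOD1, MYOG, MYF5 and MYF6, the MEF2 factors MEF2A, MEF2C and MEF2D, and the upstream factors PAX7 and SIX4. They were taken by name from a table of 65975 gene identifiers, and all 9 were found, each once. MYOD1 was 5.75-fold and MYOG 3.75-fold higher in Rh30 than in RD cells, and upon KDM3A knockdown both rose in Rh30 and fell in RD. The rise of MYOD1 in Rh30 was lost in 5 of 15 alternative analyses and the fall of MYOG in RD, which passed only narrowly, in 10 of 15. MEF2C rose and SIX4 fell upon knockdown in both lines, and in RD PAX7, which was near 0 in Rh30, fell by 43.4%.

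RNA-seq was performed on 12 libraries, 3 in each of 4 groups. RD cells are a patient-derived line of fusion-negative rhabdomyosarcoma (FN-RMS), and Rh30 cells a patient-derived line of fusion-positive rhabdomyosarcoma (FP-RMS), the subtype that carries a PAX/FOXO1 oncofusion. Cells of each line were transduced with lentivirus and selected with puromycin, and stably carried either the non-targeting Scrambled shRNA (Scramble) or the KDM3A-targeting shRNA KDM3A-sh2. RD cells were grown in DMEM and Rh30 cells in RPMI, so line and medium cannot be told apart, and each subtype is represented by 1 line and the knockdown by 1 shRNA. The 3 libraries of a group carry replicate numbers, and their origin in separate cultures is not stated in the sources used here, so p-values measure the spread between these libraries, which may be technical. The paper describes triplicate samples for each line and shRNA. The titles number the 3 Rh30 Scramble libraries 1 to 3, whereas their column headers and descriptions all end in the number 1, so these may be libraries of 1 sample. The log2 levels of these libraries correlated at 0.989, and those within the other groups at 0.987 to 0.989. Expression was given as FPKM, a read density normalised for gene length and library size, which does not hold the number of reads. Summed FPKM per library ran from 1198300 to 1379197, and between 17473 and 17983 genes per library were at 1 FPKM or more. The relative depth, estimated from the lowest values of 1264 sparse genes, ran from 0.861 to 1.19 of the median library. It was lower with KDM3A-sh2 (0.861 to 0.996) than with Scramble (1.04 to 1.19) in RD, and likewise in Rh30 (0.948 to 0.996 against 1.00 to 1.02). Its part in the results below was not tested. In bulk RNA, fewer cells of a kind and less RNA per cell cannot be told apart.

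The myogenic regulatory factors are basic helix-loop-helix proteins that bind the E-box of muscle genes as dimers with the widely expressed E proteins. MYF5 and MYOD1 commit cells to the muscle lineage, MYOG drives the differentiation of committed myoblasts, and MYF6 acts late in differentiation and in mature fibres. MEF2 proteins bind an A/T-rich element and act together with the myogenic factors, PAX7 marks satellite cells, the muscle stem cells, and SIX4 is a homeodomain protein that acts upstream of the myogenic factors through the MEF3 element. Rhabdomyosarcoma cells characteristically express MYOD1 and MYOG without completing differentiation.

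The promoter of MYOG brings these factors together, since it is a classical target of MYOD1, MEF2 and MEF3-binding homeodomain proteins. It is shown here because MYOG and MEF2C both rose upon knockdown in Rh30 cells. In RD cells MEF2C rose and MYOG fell, and a link between these genes was not tested. The PAX7 promoter is shown for contrast, because PAX7 was the factor with the largest change in RD. RefSeq promoter entries (GRCh38.p14) were found for 8 of the 9 genes. Both sequences are the 250 bases before the RefSeq start site, 5′ to 3′ along the gene, on chr1:203086013-203086262 (minus strand) for MYOG and chr1:18630596-18630845 (plus strand) for PAX7. Capitals mark the E-box CANNTG, the MEF3 element TCAGGTT and the core of the MEF2 element (CTA, 4 bases of A or T, then TA), searched on both strands.
MYOG: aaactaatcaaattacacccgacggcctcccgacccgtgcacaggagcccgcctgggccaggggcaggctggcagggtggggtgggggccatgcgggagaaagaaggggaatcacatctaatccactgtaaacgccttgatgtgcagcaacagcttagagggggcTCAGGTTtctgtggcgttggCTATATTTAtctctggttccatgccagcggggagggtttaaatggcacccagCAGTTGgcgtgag
PAX7: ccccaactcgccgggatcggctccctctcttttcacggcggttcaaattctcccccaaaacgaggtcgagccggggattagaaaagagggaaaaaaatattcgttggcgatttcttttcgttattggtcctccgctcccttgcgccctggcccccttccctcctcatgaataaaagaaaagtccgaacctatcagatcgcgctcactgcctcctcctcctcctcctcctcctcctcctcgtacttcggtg

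The MYOG window held 1 MEF3 element, whose first base lies 85 bases before the start site, 1 MEF2 core at 65 bases and 1 E-box at 13 bases. In the PAX7 window none of these letters was found. Some of them are not particular to MYOG among the factors. The MEF2 core was also found in windows of MYF6, MEF2A and MEF2C, and CANNTG in windows of MEF2D, MEF2C, MYF5 and MEF2A. Among all 35116 promoter windows of this length in the table, 61.8% held CANNTG, 2.79% held TCAGGTT and 3.3% held the MEF2 core. The core was shortened from a longer form of the element after the MYOG sequence had been seen, and a match is a description of the letters, not of binding.

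KDM3A, the histone demethylase targeted by the shRNA, was measured at 35.8, 33.9 and 30.9 FPKM in the RD Scramble libraries and at 12.0, 11.2 and 13.4 FPKM with KDM3A-sh2. In Rh30 it was at 27.8, 29.2 and 32.0 FPKM with Scramble and at 13.7, 13.2 and 15.4 FPKM with KDM3A-sh2. All KDM3A-sh2 libraries lay below all Scramble libraries of their line. KDM3A fell by 63.7% in RD and fell by 52.4% in Rh30 (log2 fold changes -1.39 and -1.02, standard error 0.08 each, limma adjusted p = 5e-05 and 0.000348).

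The labels were checked against marker genes. DES, the muscle intermediate filament gene used with MYOD1 and MYOG to diagnose rhabdomyosarcoma, was abundant in both lines, at 796.1 ± 73.2 FPKM in RD Scramble and 403.8 ± 33.2 FPKM in Rh30 Scramble (SD, n = 3 each). All 6 markers of fusion-positive tumors (TFAP2B, NOS1, CDH3, OLIG2, MYCN and FGFR4) were higher in Rh30 Scramble than in RD Scramble. Of the markers of fusion-negative tumors, HMGA2 (167 against 62.5 FPKM) and EGFR (21.1 against 6.35 FPKM) were higher in RD, and FBN2 was higher in Rh30 (17.1 against 30.7 FPKM). The 5 markers of endothelial cells summed to 2.05 to 4.75 FPKM per library, with TEK the most abundant in every group. The 5 blood cell markers summed to 0.372 to 1.05 FPKM, led by CD14 with 0.854 FPKM in RD Scramble. The 5 epithelial markers summed to 0.329 to 0.702 FPKM in RD and 5.16 to 7.97 FPKM in Rh30, where EPCAM held most of it. In every group at least 1 blood cell marker and 1 epithelial marker were listed at 0. The part of these genes in the results was not tested.

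The first comparison asked how the factors differ between the lines without knockdown. Levels were compared with limma on log2(FPKM + 1), and two-sided p-values were corrected after Benjamini and Hochberg over every gene that averaged 1 FPKM or more across the fitted libraries, with a threshold of 0.05. Of the 9 factors 7 could be tested between Rh30 Scramble and RD Scramble, and 4 were higher and 2 lower in Rh30. Over all 18357 genes tested 35% were higher and 39.6% lower, so a call was common among all genes as well as among the factors. More factors were higher than lower in Rh30, whereas over all genes the lower share was the larger, and this contrast was not tested. The median log2 difference was 0.36 among the factors tested and -0.039 among all genes. For 1 gene and 3 libraries a group, the smallest p of a two-sided exact permutation test is 0.1, here and below.

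MYOD1, the lineage determination factor (ENSG00000129152, chromosome 11 of GRCh38, 17719568 to 17722131), was at 132, 136 and 133 FPKM in RD Scramble. In Rh30 Scramble it was at 825, 794 and 690.5 FPKM. The groups were far apart, with a log2 difference of 2.51 (standard error 0.07, limma adjusted p = 1.18e-07). MYOG, the differentiation factor (ENSG00000122180, chromosome 1, 203083132 to 203086036), was at 173, 188 and 192 FPKM in RD Scramble and at 700.0, 725 and 647 FPKM in Rh30 Scramble. Every Rh30 library lay above every RD library, by 1.90 on the log2 scale (standard error 0.06, limma adjusted p = 2.09e-07). In RD Scramble MYOG exceeded MYOD1 in each library, with a ratio of MYOG to MYOD1 FPKM of 1.38 ± 0.064 (SD, n = 3). In Rh30 Scramble the ratio was 0.900 ± 0.045 (SD, n = 3), below 1 in each library, although the ranges of the genes overlapped.

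MYF5 and MYF6 lie side by side on chromosome 12, with 7437 bases between them. MYF5 (80716912 to 80719673), the early lineage factor, was listed at 0 in 11 of the 12 libraries and at 0.0272 FPKM in RD Scramble replicate 2. MYF6 (80707498 to 80709474) was listed at 0 in 5 libraries and was under 0.4 FPKM in the other 7. Both averaged under 1 FPKM, so neither was tested in the main fit of any comparison. The myogenic regulatory factor transcripts of both lines were therefore almost entirely MYOD1 and MYOG.

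MEF2C, the MEF2 gene most tied to muscle and heart (ENSG00000081189, chromosome 5, 88717117 to 88904257), was at 25.3, 31.0 and 29.65 FPKM in RD Scramble and 56.0, 57.1 and 54.7 FPKM in Rh30 Scramble. The Rh30 libraries were about double, without overlap, for a log2 difference of 0.95 (standard error 0.08, limma adjusted p = 2.79e-05). MEF2D (ENSG00000116604, chromosome 1, 156463727 to 156500828) went the other way, with 40.8, 42.65 and 42.6 FPKM in RD Scramble and 23.2, 22.2 and 18.9 FPKM in Rh30 Scramble (log2 difference -0.94, standard error 0.08, limma adjusted p = 3.19e-05). MEF2A (ENSG00000068305, chromosome 15, 99565417 to 99716466) was at 16.6, 17.1 and 17.2 FPKM in RD Scramble and slightly higher, at 21.6, 21.0 and 23.4 FPKM, in Rh30 Scramble (log2 difference 0.36, standard error 0.06, limma adjusted p = 0.00113). The summed level of these MEF2 genes was lower in RD without overlap, at 87.6 ± 4.28 FPKM in RD Scramble and 99.4 ± 2.10 FPKM in Rh30 Scramble (SD, n = 3 each). Summed FPKM over all genes was likewise lower in RD Scramble (1222915 to 1254376) than in Rh30 Scramble (1331935 to 1350414). Its part in the MEF2 difference was not tested. In makeup, MEF2D held 48.0% ± 1.22 and MEF2C 32.7% ± 1.84 in RD, against 21.6% ± 1.83 and 56.3% ± 0.703 in Rh30 (SD, n = 3 each).

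PAX7, the satellite cell factor (ENSG00000009709, chromosome 1, 18631006 to 18748866), was at 25.9, 25.5 and 24.2 FPKM in RD Scramble. In Rh30 Scramble it was at 0.0414, 0.0734 and 0.0889 FPKM. PAX7 passed the filter on low values only through RD, so its call between the lines (log2 difference -4.62, standard error 0.08, limma adjusted p = 2.16e-08) was bound to follow. SIX4 (ENSG00000100625, chromosome 14, 60709528 to 60724348) was at 38.4, 36.0 and 33.7 FPKM in RD Scramble and at 42.1, 36.8 and 38.2 FPKM in Rh30 Scramble. These values overlapped, and the log2 difference of 0.11 did not pass the threshold (standard error 0.07, limma adjusted p = 0.192). The related gene PAX3 was at 16.1 FPKM in RD Scramble and 55.5 FPKM in Rh30 Scramble, and FPKM per gene do not separate wild-type transcripts of PAX3 or PAX7 from those of the fusions with FOXO1 in which either can take part in this subtype.

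**Figure D1:**
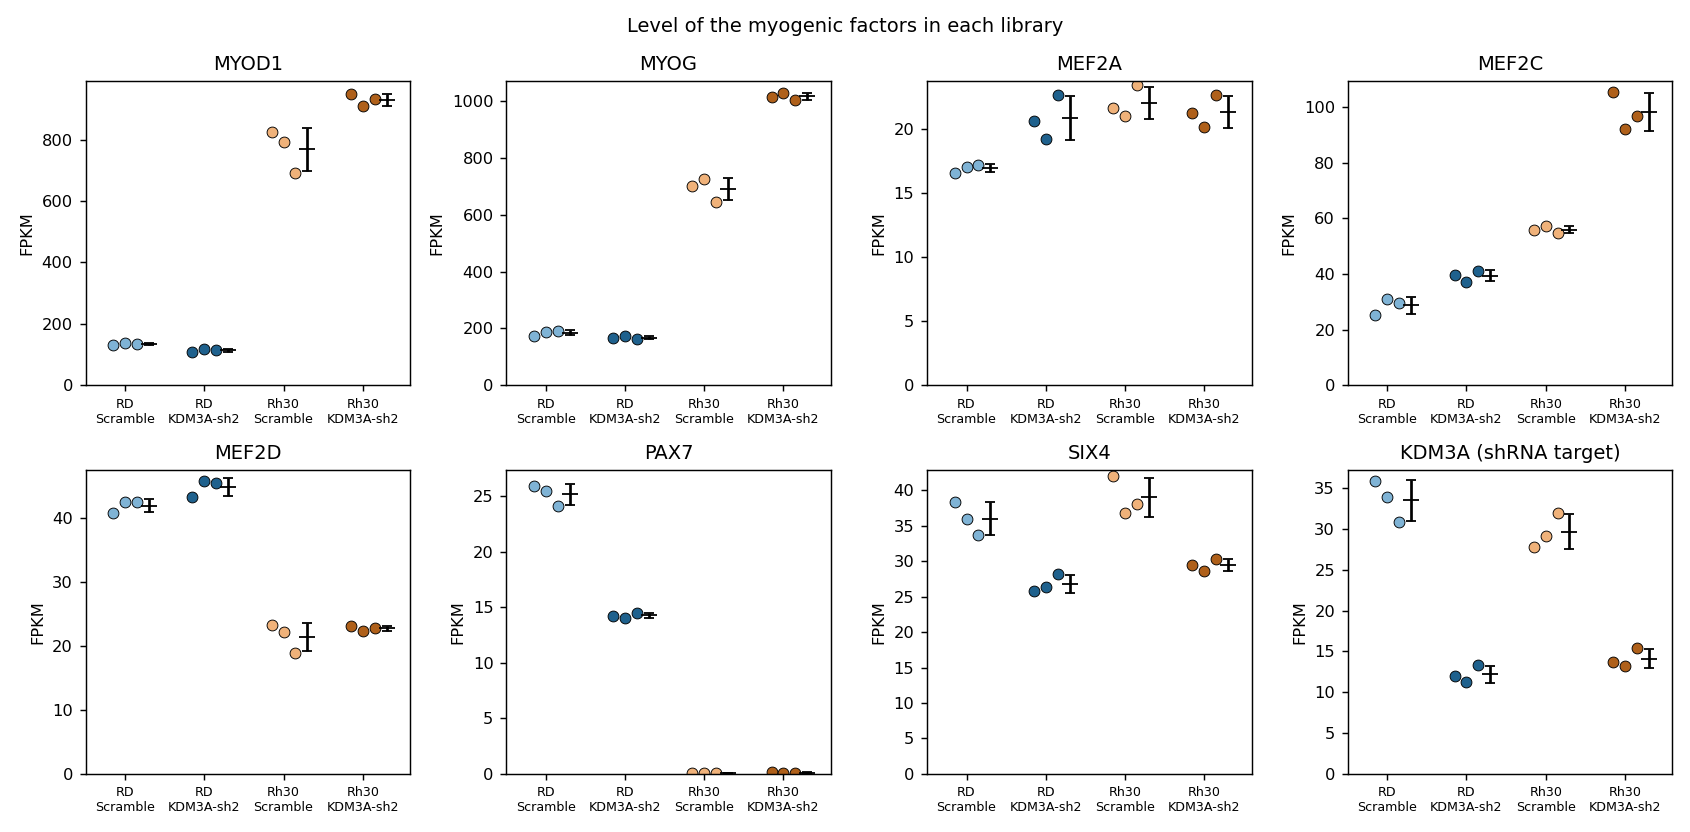
FPKM (y axis, from 0, a separate scale per panel) of the 7 factors above 1 FPKM in at least 1 group and of the shRNA target KDM3A in the 4 groups. Each point is a library and the black mark is the mean ± SD (n = 3). MYOD1 and MYOG are several times higher in Rh30, PAX7 is near 0 in Rh30, and MEF2C lies higher in the KDM3A-sh2 libraries of RD and of Rh30.

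The knockdown comparison asked how the factors respond to KDM3A depletion within each line. These comparisons use the same Scramble libraries as the comparison of the lines. In RD cells 7 factors were tested, 2 rose and 4 fell, and in all 7 the groups did not overlap. Over the 17988 genes tested in RD, 21.6% rose, 19.5% fell and 53.4% had groups that did not overlap. The median log2 fold change was -0.14 among the factors and 0.007 among all genes. In Rh30 cells 6 factors were tested, 3 rose and 1 fell, and 4 had groups that did not overlap. Over the 17803 genes tested in Rh30, 15.3% rose, 13.2% fell and 45.8% had groups that did not overlap. The medians there were 0.18 for the factors and 0.031 for all genes. With libraries scaled by the median of their gene ratios, the rising share of the called genes in Rh30 went from 53.7% to 43.5%, and 3 factors rose and 1 fell under that scaling too.

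MYOD1 fell in RD, from 132, 136 and 133 FPKM with Scramble to 107, 116 and 115 FPKM with KDM3A-sh2. The groups did not overlap, and the mean fell by 15.7% (log2 fold change -0.24, standard error 0.04, limma adjusted p = 0.00383). In Rh30 it rose from 825, 794 and 690.5 FPKM to 948.5, 910 and 933 FPKM, a gain of 20.9% without overlap (log2 fold change 0.28, standard error 0.07, limma adjusted p = 0.0222). The Rh30 Scramble libraries were spread more widely than the KDM3A-sh2 ones, at SDs of 70.3 and 19.4 FPKM. The Rh30 call of MYOD1 was lost in 5 of 15 alternative analyses: with no filter on low values (adjusted p = 0.0666 from limma), with analysis of variance on FPKM (adjusted p = 0.0719), and without KDM3A-sh2 replicate 1, 2 or 3, at log2 fold changes of 0.26, 0.29 and 0.28 (adjusted p = 0.073, 0.0509 and 0.0601 from limma). The change itself differed between the lines, by 0.52 on the log2 scale (Rh30 change minus RD change, standard error 0.08, limma adjusted p = 0.000913).

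MYOG rose in Rh30 from 700.0, 725 and 647 FPKM to 1017, 1028 and 1006 FPKM. The KDM3A-sh2 libraries stood well above the Scramble ones, a gain of 47.2% (log2 fold change 0.56, standard error 0.05, limma adjusted p = 0.0004). In RD it was at 173, 188 and 192 FPKM with Scramble and 167, 171 and 163.5 FPKM with KDM3A-sh2. The RD groups were separated only by the gap between 173 and 171 FPKM, and the mean, which fell by 9.29%, passed the threshold narrowly (log2 fold change -0.14, standard error 0.05, limma adjusted p = 0.049). That call was lost in 10 of 15 alternative analyses. Among these were the fits without RD Scramble replicates 2 and 3 (adjusted p = 0.136 and 0.138 at -0.12 and -0.11) and without RD KDM3A-sh2 replicates 1, 2 and 3 (adjusted p = 0.111, 0.0734 and 0.124 at -0.14, -0.16 and -0.12). The difference in the change of MYOG between the lines was 0.70 on the log2 scale (standard error 0.07, limma adjusted p = 3.06e-05), and it passed in all 20 alternative analyses. The ratio of MYOG to MYOD1 FPKM in Rh30 went from 0.849 to 0.936 with Scramble to 1.07 to 1.13 with KDM3A-sh2, so that MYOG exceeded MYOD1 in each of the 3 knockdown libraries.

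In RD the ratio of MYOG to MYOD1 was 1.31 to 1.44 with Scramble and 1.42 to 1.56 with KDM3A-sh2, and these ranges overlapped. MYF5 stayed listed at 0 in all KDM3A-sh2 libraries. MYF6 was listed at 0, 0.0288 and 0.0334 FPKM in RD Scramble and at 0.315, 0.143 and 0.244 FPKM in RD KDM3A-sh2. These groups did not overlap, but all values were under the limit of 1 FPKM for testing. In a fit with no such filter the log2 change of MYF6 in RD was 0.27 (standard error 0.06, limma adjusted p = 0.0255). In Rh30 MYF6 was above 0 in 1 library of each group, at 0.0350 and 0.0373 FPKM.

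MEF2C had the largest gain of the tested factors in both lines. In Rh30 it went from 56.0, 57.1 and 54.7 FPKM to 105.5, 92.1 and 97.1 FPKM. All knockdown libraries lay above all Scramble libraries, a gain of 75.6% (log2 fold change 0.80, standard error 0.06, limma adjusted p = 0.000261). In RD it went from 25.3, 31.0 and 29.65 FPKM to 39.6, 37.3 and 41.2 FPKM, a gain of 37.3% without overlap (log2 fold change 0.45, standard error 0.08, limma adjusted p = 0.00488). Both calls held in all 15 alternative analyses. The gain was larger in Rh30 by 0.35 on the log2 scale (standard error 0.10, limma adjusted p = 0.0281), but 9 of 20 alternatives did not make this call, among them every fit without 1 of RD Scramble replicates 2 and 3, RD KDM3A-sh2 replicate 2, Rh30 Scramble replicates 1 and 3, or Rh30 KDM3A-sh2 replicate 1 (0.29 to 0.35, adjusted p = 0.0517 to 0.066). The antisense genes MEF2C-AS1 and MEF2C-AS2 overlap MEF2C, and MEF2C-AS1 was at most 2.795 FPKM and MEF2C-AS2 at 0 in all libraries. LYSMD4, at 3.875 to 11.273 FPKM, likewise overlaps MEF2A on the opposite strand. The libraries were directional, but use of strand in the counting is not stated in the sources used here, and without it reads of overlapping genes cannot be told apart.

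MEF2A rose in RD, from 16.6, 17.1 and 17.2 FPKM to 20.6, 19.2 and 22.7 FPKM, a gain of 23.1% (log2 fold change 0.28, standard error 0.07, limma adjusted p = 0.0157). In Rh30 it was at 21.6, 21.0 and 23.4 FPKM with Scramble and 21.2, 20.15 and 22.6 FPKM with KDM3A-sh2, values that overlapped (log2 fold change -0.04, standard error 0.07, limma adjusted p = 0.661). The change of MEF2A differed between the lines by -0.33 (standard error 0.09, limma adjusted p = 0.0256). This call was lost without RD Scramble replicate 1, RD KDM3A-sh2 replicate 3, Rh30 Scramble replicate 3, or Rh30 KDM3A-sh2 replicate 1 or 2 (-0.32 to -0.27, adjusted p = 0.0514 to 0.0601). MEF2D did not pass the threshold in either line. It was at 43.4, 45.9 and 45.5 FPKM with KDM3A-sh2 in RD (log2 fold change 0.09, standard error 0.04, limma adjusted p = 0.125), all above the Scramble libraries, and at 23.2, 22.3 and 22.8 FPKM in Rh30 (log2 fold change 0.09, standard error 0.08, limma adjusted p = 0.45).

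The MEF2 transcripts shifted toward MEF2C. Its share of the summed MEF2A, MEF2C and MEF2D FPKM was 55.5 to 56.9% in Rh30 Scramble and 68.1 to 70.4% in Rh30 KDM3A-sh2, and it was 30.6 to 34.2% and 36.4 to 38.2% in RD. The ranges did not overlap in either line. The summed level went from 99.4 ± 2.10 to 142 ± 7.71 FPKM in Rh30 and from 87.6 ± 4.28 to 105 ± 3.71 FPKM in RD (SD, n = 3 each).

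**Figure D2:**
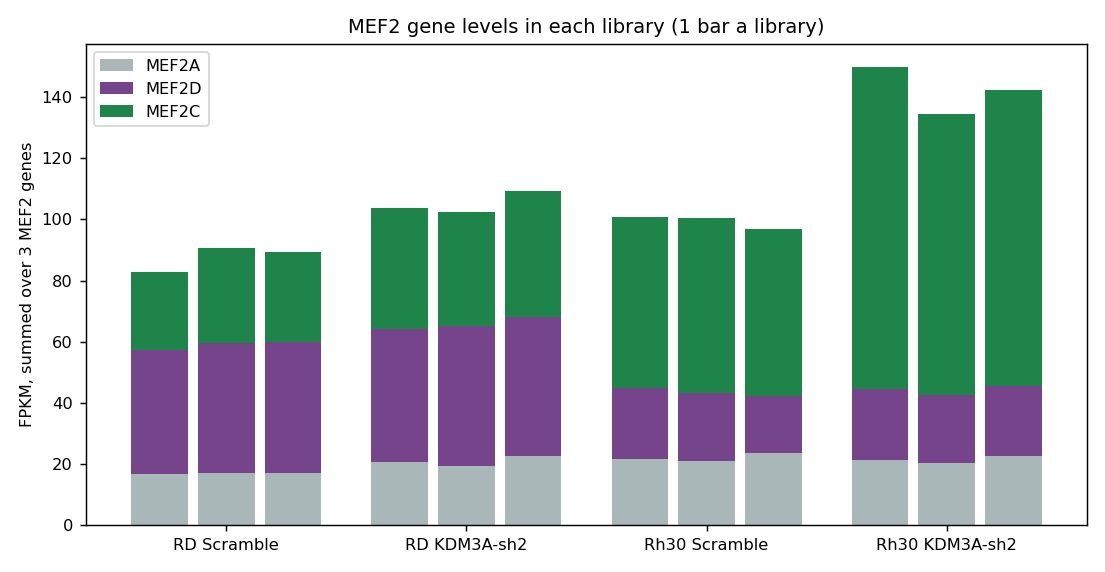
FPKM of MEF2A, MEF2D and MEF2C stacked for each of the 12 libraries (1 bar a library, 3 bars a group, y axis from 0). The MEF2C part is the largest in Rh30 and grows with KDM3A-sh2 in both lines, where MEF2A and MEF2D change less.

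PAX7 fell in RD from 25.9, 25.5 and 24.2 FPKM to 14.26, 14.01 and 14.53 FPKM. The libraries within each group were tightly placed and far from the other group, and the mean fell by 43.4% (log2 fold change -0.78, standard error 0.05, limma adjusted p = 7.51e-05), which passed in all 15 alternative analyses. In Rh30 PAX7 stayed at 0.0298 to 0.124 FPKM with KDM3A-sh2 and was not tested. The difference in change between the lines, 0.78 on the log2 scale (standard error 0.10, limma adjusted p = 0.000185), has the size of the RD change, as PAX7 in Rh30 was near 0 in all 6 libraries. With a pseudocount of 0.1 in place of 1 it was 0.79 and did not pass (adjusted p = 0.0664).

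SIX4 fell in both lines. In RD it went from 38.4, 36.0 and 33.7 FPKM to 25.9, 26.4 and 28.2 FPKM, so that it fell by 25.6% (log2 fold change -0.41, standard error 0.06, limma adjusted p = 0.00225). In Rh30 it went from 42.1, 36.8 and 38.2 FPKM to 29.5, 28.6 and 30.3 FPKM, so that it fell by 24.5% (log2 fold change -0.39, standard error 0.06, limma adjusted p = 0.00476). No knockdown library reached the level of any Scramble library, and both calls passed in all 15 alternatives. The difference in change between the lines was 0.02 (standard error 0.09, limma adjusted p = 0.889).

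**Figure D3:**
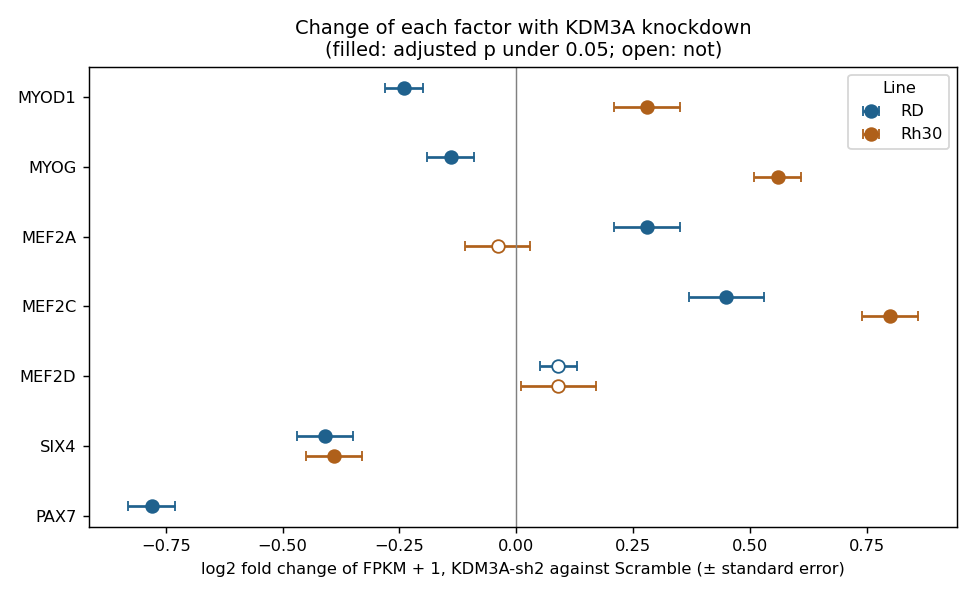
Log2 fold change of FPKM + 1 (x axis) with KDM3A-sh2 against Scramble for each factor tested, in RD (blue) and Rh30 (orange), with standard errors. Filled points passed an adjusted p of 0.05. MYOD1 and MYOG lie on opposite sides of 0 in the 2 lines, MEF2C is above 0 and SIX4 below 0 in both, and PAX7 has a value in RD alone.

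In the test of the change between lines over all 12 libraries, 7 factors were tested, of which PAX7 entered only through its RD level. Its value is the RD fall with the sign turned and is no evidence on Rh30. Of the other 6, MYOD1, MYOG and MEF2C had a higher change in Rh30 and MEF2A a lower one. Over the 18517 genes tested 14.4% had a higher and 13.4% a lower change in Rh30. With libraries rescaled to the same summed FPKM, the higher share of these calls went from 51.7% to 40.6%, and MYOD1, MYOG and MEF2A passed with the same sign while MEF2C did not (0.29, adjusted p = 0.0535).

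Across the 4 groups MYOD1 and MYOG had the same order, from Rh30 KDM3A-sh2 through Rh30 Scramble and RD Scramble down to RD KDM3A-sh2, with no overlap between neighbours. MEF2C had the order Rh30 KDM3A-sh2, Rh30 Scramble, RD KDM3A-sh2 and RD Scramble, also without overlap. For SIX4 the Scramble groups of both lines overlapped at the top, followed by Rh30 KDM3A-sh2 and, without overlap, RD KDM3A-sh2. For MEF2A only RD Scramble stood apart, below the other groups, which overlapped. MEF2D was highest in RD KDM3A-sh2, then in RD Scramble, and the Rh30 groups overlapped at about 22 FPKM. The RD groups of MYOG were separated only by the gap between 173 and 171 FPKM. Over all genes tested, 53.4% in RD and 45.8% in Rh30 had knockdown and Scramble groups that did not overlap.

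Among genes that averaged 5 FPKM or more, names of clones left out, those whose log2(FPKM + 1) followed each factor most closely over the 12 libraries were NCAPH2 (r = 0.999) and the pseudogene RPL13P12 (0.999) for MYOD1, and CEROX1 (0.999) and EEF1G (0.999) for MYOG. MEF2C was followed most closely by IL21R (0.993) and PIGW (0.992). IL21R, a cytokine receptor gene, had means of 3.0 and 5.9 FPKM in RD without and with knockdown, and of 16.1 and 45.5 FPKM in Rh30. For SIX4 these were TADA2B (0.978) and the pseudogene AHCTF1P1 (0.962), for PAX7 IFIT2 and SCARA3 (1.00 each), for MEF2D EVA1B (0.999) and ENTREP3 (0.998), and for MEF2A DCAF5 (0.942) and PDE8A (0.939). TADA2B had means of 15.7 and 8.4 FPKM in RD and of 17.7 and 10.3 FPKM in Rh30. The 12 libraries share 4 groups, and the distance between the lines sets most of these Pearson correlations, which are given as a description.

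The genes that work with the factors were taken from lists by role, described by counts beside the shares of all genes that rose and fell (21.6% and 19.5% in RD, 15.3% and 13.2% in Rh30) and beside the medians of all genes (0.007 in RD and 0.031 in Rh30). No list was tested as a set. Of the 3 E proteins, the dimer partners of the myogenic factors, TCF3 fell in RD from 249 to 197 FPKM (-0.34 on the log2 scale, limma adjusted p = 0.00109) and TCF12 fell in Rh30 from 114 to 105 FPKM (-0.12 on the log2 scale, adjusted p = 0.033). TCF3 in Rh30 (-0.03, adjusted p = 0.786) and TCF12 in RD (-0.16, adjusted p = 0.065) did not pass. TCF4 went from 56.2 to 59.2 FPKM in RD (adjusted p = 0.204) and from 18.2 to 15.1 FPKM in Rh30 (adjusted p = 0.0947).

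Inhibitors of the myogenic factors formed a list of 17 genes. In RD 2 of the 15 tested rose and 9 fell (median log2 fold change -0.27), beside 21.6% and 19.5% of all genes. In Rh30 7 of 14 rose and 3 fell (median 0.21), beside 15.3% and 13.2% of all genes. ID proteins bind E proteins and keep them from the myogenic factors. In Rh30 ID3 rose from 338 to 611 FPKM (0.85 on the log2 scale, limma adjusted p = 0.000221) and ID1 from 57.9 to 88.6 FPKM (0.61, adjusted p = 0.000657). In RD ID3 rose from 175 to 220 FPKM (0.33, adjusted p = 0.00838), while ID1 fell from 68.2 to 59.6 FPKM (-0.19, adjusted p = 0.0124) and ID2 from 44.4 to 23.5 FPKM (-0.89, adjusted p = 0.000229). ID2 in Rh30 was at 25.6 and 29.2 FPKM (0.19, adjusted p = 0.163). MDFI, which encodes a protein that holds MyoD family proteins in the cytoplasm, fell in RD from 69.7 to 38.8 FPKM (-0.83, adjusted p = 5.01e-05) and rose in Rh30 from 154 to 181 FPKM (0.23, adjusted p = 0.0137), a difference in change of 1.06 (adjusted p = 2.34e-06). BHLHE40, a repressor of the same protein class, fell in Rh30 from 15.6 to 5.61 FPKM (-1.34, adjusted p = 0.000393) and rose slightly in RD (0.21, adjusted p = 0.0425).

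The list of MEF2 coactivators and repressors had 17 genes, MEF2B included (at most 5.155 FPKM), of which 3 rose and 2 fell among 17 tested in RD (median 0.02), beside 21.6% and 19.5% of all genes. In Rh30 3 rose and 2 fell among 15 tested (median 0.04), beside 15.3% and 13.2% of all genes. HDAC4, a class IIa deacetylase that represses MEF2, fell in RD from 17.5 to 13.4 FPKM (-0.35 on the log2 scale, limma adjusted p = 0.0425) and in Rh30 from 13.4 to 10.0 FPKM (-0.39, adjusted p = 0.033). HDAC9, of the same class, rose in RD from 6.73 to 10.8 FPKM (0.61, adjusted p = 0.00168), and at 1.19 and 0.617 FPKM it was not tested in Rh30. MAML1, a coactivator of Notch and MEF2C, rose in RD from 18.7 to 25.8 FPKM (0.44, adjusted p = 0.00622) and in Rh30 from 25.0 to 31.6 FPKM (0.33, adjusted p = 0.00476).

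Of 20 upstream factors of the muscle lineage, 2 rose and 7 fell among 14 tested in RD (median -0.15), beside 21.6% and 19.5% of all genes. In Rh30 7 rose and 3 fell among 17 tested (median 0.14), beside 15.3% and 13.2% of all genes. PAX3, a relative of PAX7, fell in RD, from 16.1 to 8.16 FPKM (-0.91 on the log2 scale, limma adjusted p = 0.0013), and rose in Rh30 from 55.5 to 76.8 FPKM (0.47, adjusted p = 0.0118), a difference in change of 1.37 (adjusted p = 0.000145). The PAX3 values of Rh30 may include transcripts of a fusion with FOXO1, which FPKM per gene do not separate. PITX3, a homeobox gene active in muscle, had the largest drop of the list in RD, from 22.3 to 9.15 FPKM (-1.21, adjusted p = 0.000186), and was at 114 and 106 FPKM in Rh30 (-0.10, adjusted p = 0.365). NFIX, which drives the switch from embryonic to fetal muscle, rose in RD from 9.38 to 18.2 FPKM (0.89, adjusted p = 0.00024) and in Rh30 from 32.0 to 37.5 FPKM (0.23, adjusted p = 0.0391). In Rh30 EYA2, a cofactor of SIX4 and its relatives, rose from 58.0 to 90.5 FPKM (0.63, adjusted p = 0.000264). MEOX1 fell there from 17.7 to 9.14 FPKM (-0.88, adjusted p = 0.000195). Both were under 1 FPKM in RD on average and were not tested there.

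Among 18 early targets and genes of myoblast fusion, all tested in each line, 7 rose and 7 fell in RD (median 0.06), beside 21.6% and 19.5% of all genes. In Rh30 4 rose and 8 fell (median -0.20), beside 15.3% and 13.2% of all genes. The list holds 3 acetylcholine receptor genes, classical targets of the myogenic factors. CHRNA1 and CHRND rose in RD and fell in Rh30, and CHRNG rose in RD from 12.8 to 14.8 FPKM (0.19 on the log2 scale, limma adjusted p = 0.0493) and was at 19.5 and 20.6 FPKM in Rh30 (0.08, adjusted p = 0.51). CHRND rose in RD from 105 to 150 FPKM (0.51 on the log2 scale, limma adjusted p = 0.000224) and fell in Rh30 from 99.4 to 61.3 FPKM (-0.69, adjusted p = 0.000139), a difference in change of -1.20 (standard error 0.06, adjusted p = 4.65e-07). CHRNA1 fell in Rh30 from 456 to 292 FPKM (-0.64, adjusted p = 8.55e-05). Its rise in RD from 1070 to 1440 FPKM (0.42, adjusted p = 0.000127) is named because of the Rh30 value and, like CHRNG, was chosen after its values were seen. SGCA, a sarcoglycan gene, rose in Rh30 from 74.2 to 113 FPKM (0.60, adjusted p = 0.00029) and in RD from 193 to 269 FPKM (0.48, adjusted p = 0.000621). The Notch ligand gene DLL1 fell in RD from 28.3 to 13.9 FPKM (-0.98, adjusted p = 4.89e-05) and was at 14.6 and 12.3 FPKM in Rh30 (-0.22, adjusted p = 0.143).

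Of the contractile and metabolic muscle genes, 4 (NEB, PYGM, MYL1 and TTN) rose and 17 fell among 24 tested in RD (median -0.31), beside 21.6% and 19.5% of all genes. In Rh30 5 rose and 9 fell among 21 tested (median -0.14), beside 15.3% and 13.2% of all genes. TNNC1, the slow and cardiac troponin C gene, fell in both lines, from 43.1 to 19.4 FPKM in RD (log2 fold change -1.11, limma adjusted p = 2.22e-05) and from 42.6 to 9.37 FPKM in Rh30 (-2.08, adjusted p = 5.41e-05). MYLPF, a fast myosin light chain gene, fell in Rh30 from 43.9 to 13.5 FPKM (-1.63, adjusted p = 8.33e-05) and in RD from 264 to 212 FPKM (-0.31, adjusted p = 0.00168). Both giant sarcomere genes rose in both lines. NEB went from 85.3 to 158 FPKM in RD (0.89, adjusted p = 2.06e-05) and from 58.5 to 106 FPKM in Rh30 (0.84, adjusted p = 0.000122), and the difference in change of -0.04 did not pass (standard error 0.06, adjusted p = 0.659). TTN went from 7.05 to 8.34 FPKM in RD (0.22, adjusted p = 0.037) and from 11.2 to 22.0 FPKM in Rh30 (0.93, adjusted p = 0.000428), a difference in change of 0.71 (adjusted p = 0.000275).

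The list for the exit of myoblasts from the cell cycle had 8 genes, the cyclin gene CCND3 included. Of these, 4 rose and 2 fell in RD (median 0.10), beside 21.6% and 19.5% of all genes. There GADD45A went up from 64.3 to 90.6 FPKM (0.49 on the log2 scale, limma adjusted p = 0.000188), CDKN1C went down from 19.96 to 11.7 FPKM (-0.72, adjusted p = 0.000731) and RBL1 down from 9.42 to 6.62 FPKM (-0.45, adjusted p = 0.00916). In Rh30 GADD45A (0.05, adjusted p = 0.468) and RBL1 (0.17, adjusted p = 0.245) did not pass, and CDKN1C was under 1 FPKM and not tested. In Rh30 1 of 7 rose and 2 fell (median 0.05), beside 15.3% and 13.2% of all genes, with CDKN1A, the inhibitor classically induced by MYOD1, down from 99.5 to 67.6 FPKM (-0.55, adjusted p = 0.000346) and RB1 down from 47.7 to 36.6 FPKM (-0.37, adjusted p = 0.0263). In RD CDKN1A rose from 40.5 to 48.7 FPKM (0.26, adjusted p = 0.00239), a difference in change of -0.81 (adjusted p = 2.44e-06), and RB1 did not pass (-0.06, adjusted p = 0.578). For each gene of these lists the value in the line where the rule did not name it was added after its values were seen.

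**Figure D4:**
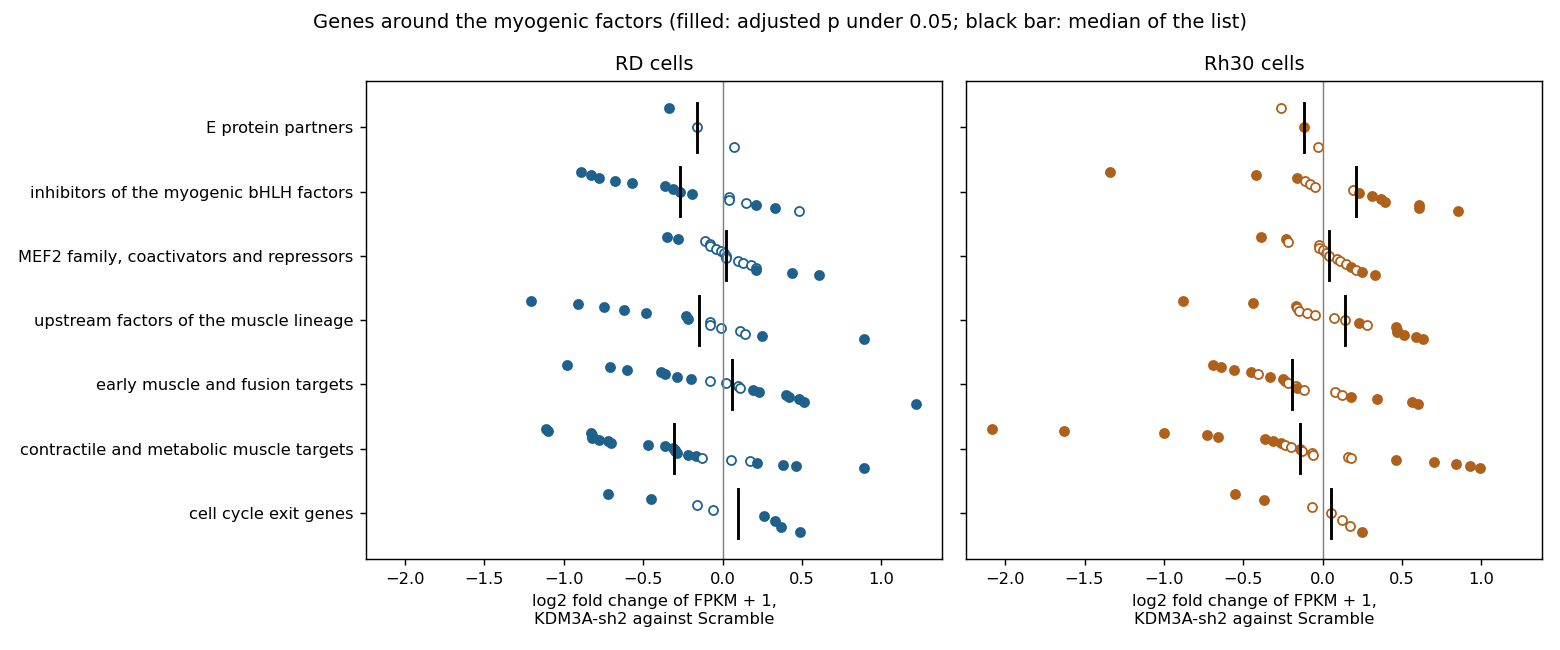
Log2 fold change of FPKM + 1 with KDM3A-sh2 against Scramble (x axis) for the tested genes of 7 lists in RD (left) and Rh30 (right). Each point is a gene, filled where its adjusted p was under 0.05, and the black bar is the median of the list. The list of inhibitors has its median at -0.27 in RD and 0.21 in Rh30, and the contractile genes spread from -2.08 to 0.99 in Rh30.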

How the data were processed

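RNA-seq was analysed from 12 libraries (RD and Rh30 cells, Scramble or KDM3A-sh2, 3 each). The authors aligned reads to GRCh38 with GSNAP (named, with the build, in the submitters' processing notes), used SAMtools and deposited gene-level FPKM computed with Cufflinks. The annotation release and strand setting are not given in the sources used here. The placeholder 999999999, found in 17 genes and in none of the 9 factors, was treated as missing. Of the repeated entries of 117 identifiers, the one with the higher mean was used. Symbols matched 85.5% of the identifiers, and positions came from GENCODE 29.

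The study compared FPKM by analysis of variance. Here limma 3.58.1 (R 4.3.3, lmFit and eBayes with a trend) was fitted to log2(FPKM + 1), which understates the change of low genes, over genes averaging 1 FPKM or more, for each line, for the Scramble libraries and, as an interaction, for all 12. Tests were run on simulated data first. Figures used Python 3.11.15 and matplotlib 3.10.9. Correlations between replicates on the log2 scale were 0.987 to 0.989.

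The factors and gene lists were chosen with earlier results of these data known. Besides the 9 factors and KDM3A, the rule named at most the 2 called genes with the largest rise and the 2 with the largest fall per list and comparison (mean of at least 5 FPKM), and the 2 genes most correlated with each factor. Of the genes so named the text gives a part, chosen with their values known, and 1 of the others is not reported here. Alternatives were a pseudocount of 0.1, no filter, a filter of 10 FPKM in 1 library, rescaling to equal sums, median-of-ratios scaling, no trend, summed repeated entries, a replicate block, analysis of variance on FPKM, and each library left out.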

Additional observations from a re-analysis of the deposited data

Results flagged for a closer look

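The change upon KDM3A knockdown differed between Rh30 and RD cells for MYOD1, MYOG, MEF2C and MEF2A among the 6 factors that could be compared, in the limma test of the difference itself (Rh30 change minus RD change, log2 scale). Over all genes 14.4% had a higher and 13.4% a lower change in Rh30. The difference was 0.52 for MYOD1 (adjusted p = 0.000913) and 0.70 for MYOG (adjusted p = 3.06e-05), and both calls held in all 20 alternatives. It was 0.35 for MEF2C (adjusted p = 0.0281), which rose in both lines, and this call was lost in 9 of 20 alternatives. It was -0.33 for MEF2A (adjusted p = 0.0256), which rose in RD, and this call was lost in 5 of 20. For PAX7 the value was 0.78 (adjusted p = 0.000185, and 0.0664 with a pseudocount of 0.1). PAX7 was under 0.13 FPKM in every Rh30 library, where no change could be measured, so the value restates the RD fall and shows no difference between the lines.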

How the results depend on the processing

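Over the tested factors, 397 of 440 alternative values kept their direction and their side of the threshold, 31 were no longer past it and 12 changed sign. The sign changes were in values near 0 that had not passed: MEF2A in Rh30 (0 without Rh30 Scramble replicate 3, and -0.084 to 0 with single libraries left out), the difference between lines of SIX4 (-0.036 with libraries rescaled to equal sums, -0.007 with median-of-ratios scaling, and -0.026 to 0.075 with single libraries left out) and that of MEF2D (-0.09 to 0.052). With analysis of variance on FPKM 1 factor rose in RD in place of 2, since MEF2A had an adjusted p of 0.0528. Without the filter on low values the difference between lines was lower in Rh30 for 2 factors in place of 1, the added one being MYF6, and with single libraries left out for 0 to 1. MYF6 was at most 0.0373 FPKM in Rh30, so its value of -0.27 restates the RD rise and shows no difference between the lines. Genes called in Rh30 numbered 5066, and 3215 to 4071 with single libraries left out, the fewest without KDM3A-sh2 replicate 1. The difference between lines of KDM3A was past the threshold (0.37, limma adjusted p = 0.0388) and was lost in 11 of 20 alternatives. Rescaling to equal sums moved the median of all genes between the Scramble groups from -0.039 to -0.141, and the directions of the factors called there held. The cause of these changes was not tested. FPKM gave only the relative depth of the libraries, not read numbers, so no counting error could be computed.

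Same-numbered libraries shared only a number: their deviations from the group means correlated at -0.07 to -0.01 in RD, -0.05 to -0.03 in Rh30 and -0.05 to 0.06 between the Scramble groups, and 0, 0 and 1 of 3 pairs matched best with their own number. With the replicate number as a block, 6259 genes in place of 7390 passed in RD and 3421 in place of 5066 in Rh30, and MYOG in RD (adjusted p = 0.0785) and the difference between lines of MEF2C (adjusted p = 0.0523) did not pass.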

Other observations

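The partner genes of myoblast fusion were unequally set in the lines without knockdown. MYMX, which encodes myomixer, was at 16.0 ± 0.742 FPKM in RD Scramble and 106.0 ± 2.59 FPKM in Rh30 Scramble (SD, n = 3 each; log2 difference 2.66, adjusted p = 3.01e-08 from limma), whereas MYMK, which encodes myomaker, was at 24.2 ± 1.24 and 4.59 ± 0.447 FPKM (log2 difference -2.18, adjusted p = 5.65e-07). Upon knockdown neither passed the threshold in RD (adjusted p = 0.81 and 0.365) or in Rh30 (adjusted p = 0.05, rounded from just above it, and 0.0691). Of 24 contractile and metabolic muscle genes tested, 9 were higher and 14 lower in Rh30 Scramble than in RD Scramble, beside 35% and 39.6% of all genes. TNNC2 (171 against 3.30 FPKM) and MYL1 (435 against 10.8 FPKM) were higher in RD Scramble, and TNNI2 (12.8 against 33.1 FPKM), ACTC1 (680 against 2950 FPKM) and TNNI1 (372 against 1570 FPKM) were higher in Rh30 Scramble. The rule did not name TNNI2, which was added with its values known. Among the upstream factors the widest gap was in EYA2, at 0.353 FPKM in RD Scramble and 58.0 FPKM in Rh30 Scramble. Among the inhibitors of the myogenic factors, HEY1, a repressor gene induced by Notch, was at 208 FPKM in RD Scramble and 5.50 FPKM in Rh30 Scramble (log2 difference -5.01, adjusted p = 1.79e-08), and SNAI1, which competes for E-boxes, was at 5.82 and 83.7 FPKM (log2 difference 3.64, adjusted p = 4.03e-08).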
